A study of Mus musculus with 6 samples.

Results

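The regions described here are 938 stretches of DNA that carried a large H3K27me3 peak 30 h after the start of differentiation of subventricular zone (SVZ) neural stem cells (NSCs), and lay away from every H3K27me3 peak listed for proliferating cells. They were chosen by the measured peaks themselves. A member is a 30 h H3K27me3 peak on chromosomes 1 to 19, between 5000 and 10000 bp wide, with no proliferating H3K27me3 peak over it or within 5000 bp of either edge, and with no H3K4me3 peak over it. The members made up 6.18% of the 15187 peaks in the 30 h list and 34.1% of its 2753 peaks of that width on those chromosomes. They covered 6.05 Mb, or 8.24% of the 73.4 Mb covered by the whole 30 h list. All 3 lists together hold 43384 peaks.

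H3K27me3, trimethylation of lysine 27 on histone H3, is placed by EZH2, the catalytic subunit of Polycomb repressive complex PRC2, and accompanies gene silencing. PRC2 can bind the mark that it places, which allows H3K27me3 to be maintained through cell division and to form domains far wider than a single promoter. H3K4me3 marks the promoters of active genes, and also those of many silent developmental genes, where it can coexist with H3K27me3. SVZ NSCs are specialized astrocytes that produce interneurons for the olfactory bulb.

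Cultures were monolayers of SVZ cells from C57BL/6 mice at passages 5 to 7, started from young postnatal animals, each plated in its own well. Proliferating cultures received serum, EGF and bFGF, and differentiation was begun by lowering the serum and removing both growth factors. H3K27me3 was profiled by ChIP-seq in proliferating cultures and at 30 h of differentiation with the same antibody, and H3K4me3 was profiled in proliferating cultures that the labels call ventral, with 1 library each. No genetic alteration is named in the labels of these samples, and whether the libraries came from the same culture is not stated. A culture can hold cells at different stages, so a peak does not tell which cells carried the mark.

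No comparison in what follows has a replicate check, because each condition has 1 library. Intervals are 95% Wilson intervals for shares and exact binomial intervals for medians, and cover counting error over regions only. Neighbouring regions are not independent of each other. Each member has a width and a score in the 30 h library alone, since it was selected for its absence from the other lists, and that absence is a criterion and not a result. Depth is unknown, as the lists give peaks without read counts. Whether weaker signal below the peak threshold was present at these places in proliferating cells was therefore not tested. The score is the value that the peak caller MACS gave to each peak, and is compared only between peaks of the same list. Positions are in mm9, per the submitters' processing notes, and gene positions in that build were not used here, so members are given by coordinates.

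Large peaks away from the other lists formed the upper end of a much longer series of narrow ones. Among 30 h peaks of any width on the numbered chromosomes, 54.3% had no proliferating H3K27me3 peak within 5 kb and no H3K4me3 overlap, with a median width of 2786 bp. This background is part of the same selection and says nothing on its own about the members. The share was 71.6% (95% interval 69.2 to 73.8%) for peaks under 2 kb and 68.9% (67.6 to 70.2%) from 2 to 3 kb. It fell to 56.2% (54.7 to 57.6%) from 3 to 5 kb and to 34.1% (32.3 to 35.9%) in the width range of the members. Above that range 98 of 855 peaks from 10 to 20 kb (11.5%) and 3 of 303 peaks of 20 kb or more (0.990%) met the same criteria. A wider peak has more room to meet a peak of another list, and the part of this in the decline was not tested.

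**Figure D1:**
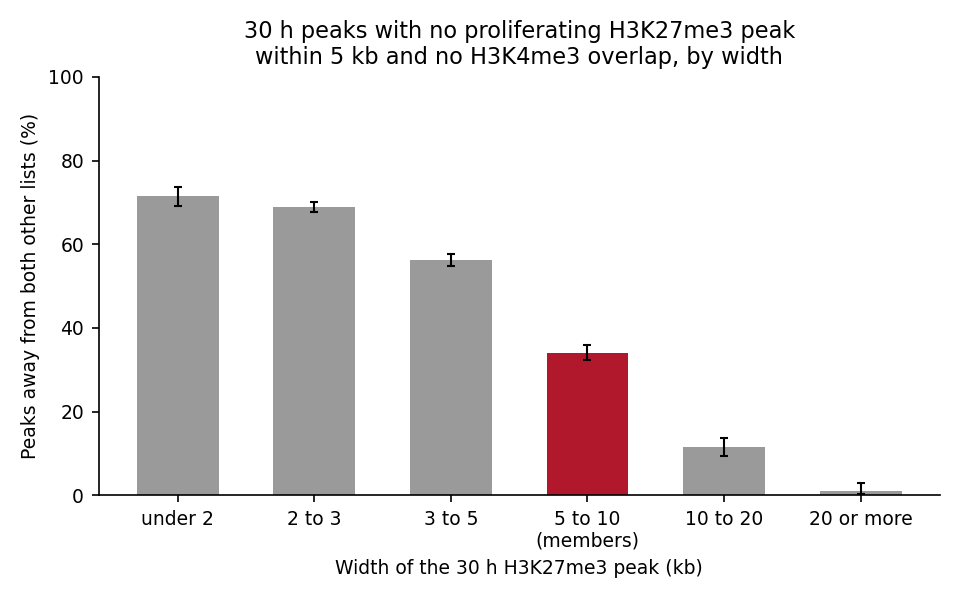
Share of 30 h H3K27me3 peaks on chromosomes 1 to 19 that lie more than 5 kb from every proliferating H3K27me3 peak and over no H3K4me3 peak (y axis, percent), by width of the 30 h peak (x axis, kb). Bars are 1 library with 95% Wilson intervals, and the red bar, at 34.1%, holds the members; the bars run from 71.6% for the narrowest peaks to 0.990% for the widest.

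Members were concentrated near the lower width limit. Their median width was 6095 bp (95% interval 6025 to 6210 bp), with the middle 50% between 5454 and 7202 bp, and 432 of the 938 were narrower than 6 kb while 50 were 9 kb or wider. The limits cut through a continuous distribution. The narrowest members, at chr16:8504133-8509132 and at chr7:105126033-105131032, were both 5000 bp wide, and peaks of 4998 bp at chr12:33443698-33448695 and at chr2:60553526-60558523 were left out. At the upper limit, a peak of 9991 bp at chr2:92901789-92911779 was kept and one of 10020 bp at chr7:47984642-47994661 was not. Just inside the distance limit was a peak at chr17:34548678-34556267, with 5021 bp to its nearest proliferating peak, and just outside it one at chr5:37245985-37251699, with 4982 bp. The smallest gap to H3K4me3 among members was 19 bp, at chr1:60911910-60917555, and the smallest overlap that removed a peak was 1 bp, at chr3:123089804-123096895.

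Within the whole 30 h list, of which 73.8% was narrower than 5 kb, the members were neither the strongest nor the weakest peaks. Their rank in that list depends on the width limits, and among peaks of 5 to 10 kb they lay toward the weak end, as given below. Their median score was 401 (95% interval 391 to 420) with the middle 50% between 312 and 538, which placed the median member at percentile 75.8 of all 30 h peaks and the range of members between percentiles 42.7 and 93.7. Of the 938, 932 scored above the median of the list, 154.75. The width limit bears on this count, which was not taken for all 2753 peaks of 5 to 10 kb. The weakest of 5 score groups of those peaks already ran from 126 to 347. With H3K27me3 peaks less than 3 kb apart merged before selection, the median score was 249.8. None reached 3100, a score shared by the strongest peaks with few above it. Score rose with width among members (Spearman's rho = 0.59 over 938 regions of 1 library, given as a description), so that the median went from 325 for members of 5 to 6 kb to 414, 501, 599 and 760 for each further kb.

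The members scored lower than peaks of the same width that lay over a proliferating H3K27me3 peak. The comparison set was the 963 peaks of 5 to 10 kb that overlapped a proliferating peak and, like the members, no H3K4me3 peak. From 5 to 6 kb their median score was 478 against 325 in members, and from 9 to 10 kb it was 1024 against 760, with a higher median than in members in each kb between. The sets overlapped widely, and the upper quartile of members from 5 to 6 kb, 416, lay above the lower quartile of the comparison set, 343. Score was not part of the rule, but it comes from the library that chose the members. The difference is thus a description and was not tested. The other peaks of 5 to 10 kb with no proliferating peak over them also scored low. The 250 with a proliferating peak within 5 kb had a median score of 431 (408 to 463). The 83 with none within 5 kb but with H3K4me3 over them had 441 (386 to 500). Both intervals overlapped that of members, 401 (391 to 420), while the 963 peaks had a median of 664. These medians were not matched for width. A low score was thus not particular to members. Proliferating peaks covered a median of 40.8% of the width of the 963 peaks (middle 50% from 28.3 to 60.9%), and the nearest of them had a median width of 2448 bp. A proliferating counterpart was thus usually much narrower than the 30 h peak above it.

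**Figure D2:**
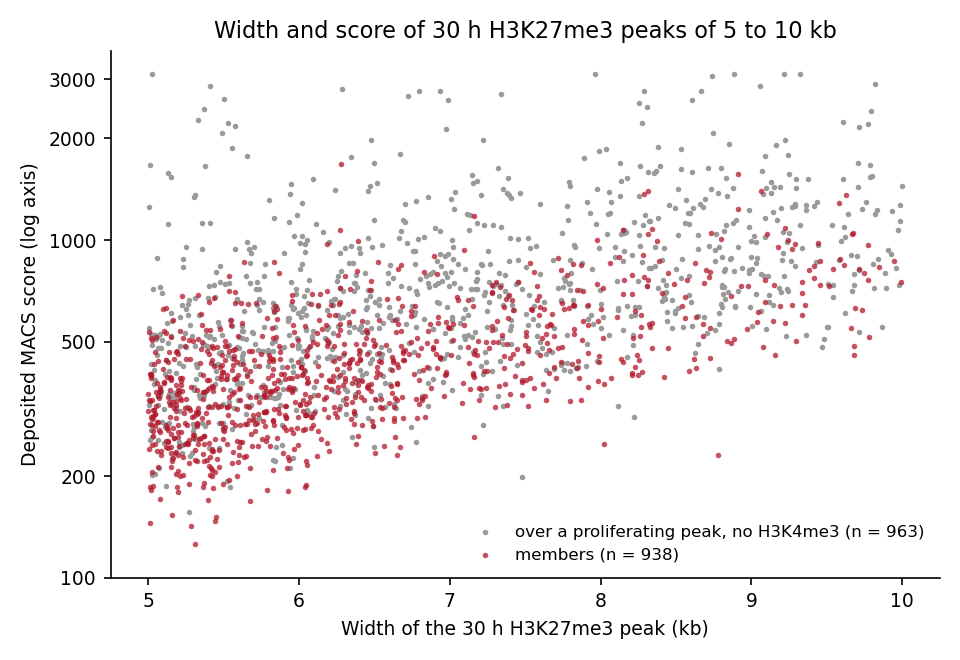
Deposited MACS score (y axis, log scale) against width (x axis, kb) for 30 h H3K27me3 peaks of 5 to 10 kb, with each point 1 peak of 1 library. Members (red) have a median score of 401 and lie lower at each width than peaks over a proliferating peak and no H3K4me3 (grey), although both clouds overlap.

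Ranked by score, the share of members fell steadily. With all 2753 peaks of 5 to 10 kb divided by score into 5 groups of nearly equal size, members made up 59.0% (95% interval 54.8 to 63.0%) of the weakest group and 51.1% (46.9 to 55.3%) of the next. They made up 34.1% of the middle group, 21.3% of the fourth and 4.90% (3.39 to 7.04%) of the strongest. Peaks over a proliferating peak, with or without H3K4me3, ran the other way, from 22.5% of the weakest group to 92.6% of the strongest. The 27 members in the strongest group, with scores of at least 957, were thus a small minority among peaks of their strength. These score groups were not matched for width. Members had a median width of 6095 bp against 6877 bp for the 1482 peaks over a proliferating peak, and score rose with width in both sets (Spearman's rho = 0.59 and 0.48). The part of width in the fall was not tested.

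**Figure D3:**
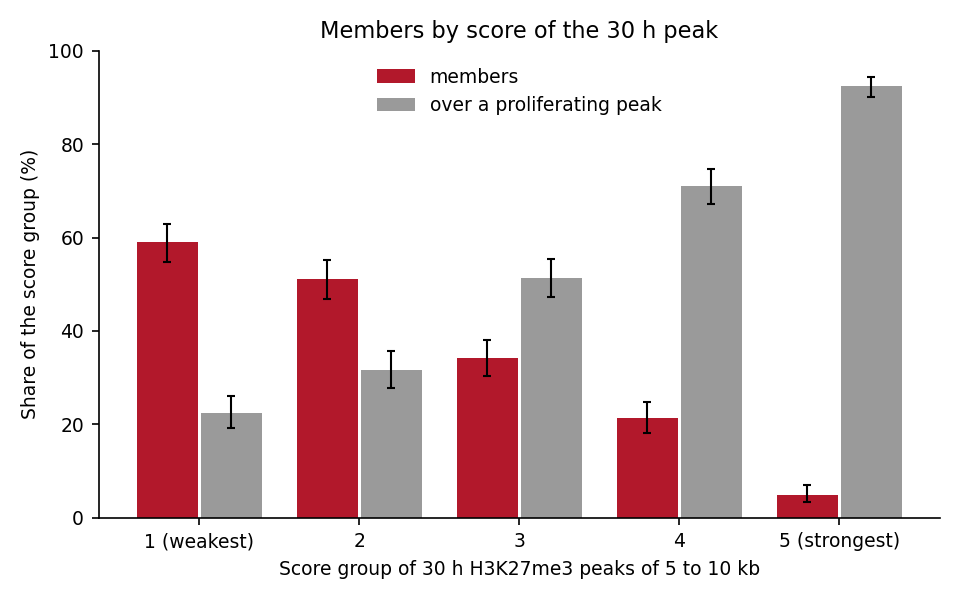
Share of each score group of 30 h H3K27me3 peaks of 5 to 10 kb (x axis, weakest to strongest) that were members (red) or lay over a proliferating H3K27me3 peak (grey), in percent (y axis). Bars are 1 library with 95% Wilson intervals, and the score groups are not matched for width. Members fall from 59.0% to 4.90% while peaks over a proliferating peak rise from 22.5% to 92.6%.

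The highest score among members, 1675, belonged to a peak of 6.28 kb at chr6:16938783-16945062, which lay 441 kb from the nearest proliferating H3K27me3 peak and 69.4 kb from the nearest H3K4me3 peak. Also on chromosome 6 were chr6:40406787-40415696, 8.91 kb wide with a score of 1575, and chr6:32202742-32211058, 8.32 kb wide with a score of 1398. They differed in their surroundings. The former was 13.2 kb from a proliferating peak, whereas the latter had none for 325 kb and no H3K4me3 for 314 kb. At chr9:123628431-123637491 a member of 9.06 kb with a score of 1397 lay 0.969 kb from an H3K4me3 peak, the closest of the 10 highest-scoring members.

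The other 6 of these 10 scored from 1089 to 1369. They lay at chr11:89692901-89701186, chr2:92993815-93003440, chr12:58080863-58090442, chr2:151485901-151494811, chr10:84875629-84882785 and chr2:9520621-9529843. Their gaps to the nearest proliferating peak ran from 15.1 kb to 269 kb. A high score thus occurred both close to and far from the mark of proliferating cells. After the peak on chromosome 2 named above, the widest members were those at chr15:77927246-77937192 (9.95 kb, score 867), chr9:48525534-48535381 (9.85 kb, score 831), chr14:28685285-28695062 (9.78 kb, score 516) and chr9:69779660-69789432 (9.77 kb, score 966).

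Although selected for distance from proliferating peaks, the members were seldom far from other H3K27me3 peaks of the 30 h list, so the word isolated holds for them only with respect to the proliferating cells. The median gap from a member to the nearest other 30 h peak was 2.87 kb (95% interval 2.40 to 3.22 kb). Another 30 h peak lay within 1 kb of 303 members (32.3%), within 3 kb of 476 (50.75%) and within 10 kb of 701 (74.7%), and 47 (5.01%) had none within 100 kb. The nearest neighbour had a median width of 3228 bp. In 696 cases (74.2%) that neighbour itself had no proliferating peak within 5 kb and no H3K4me3 overlap, and in 149 (15.9%, 13.7 to 18.4%) it lay over a proliferating peak, against 30.4% of all 30 h peaks on these chromosomes. The criterion of 5 kb around each member bears on both shares.

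To see how far the members belonged to longer domains, 30 h peaks less than 3 kb apart were joined into chains. The 938 members fell into 874 chains, of which 462 (52.9%) consisted of the member alone and 58 held 2 or more members. The chains had a median span of 8.42 kb. The chains of 799 members (85.2%, 82.8 to 87.3%) reached no proliferating H3K27me3 peak within 5 kb and no H3K4me3 peak at any of their peaks. The 462 members alone in their chain are among these by the rule, so only members in longer chains could reach another list. Chains of 120 members (12.8%, 10.8 to 15.1%) did overlap a proliferating peak somewhere along their length. Some of these chains were very long, such as that at chr11:96093289-96248675, which spanned 155 kb with 4 peaks and held 1 member, and that at chr1:78101504-78224683, which spanned 123 kb and held 2. These members thus belonged to 30 h domains that met the mark of proliferating cells elsewhere. Joining peaks less than 10 kb apart raised the number of such members to 320 (34.1%) and left 237 alone (25.3%).

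Chains that reached neither other list were shorter, with a median span of 7.60 kb and a longest of 39.0 kb. That longest chain, at chr14:67958872-67997861, held 7 peaks, 3 of them members, that covered 30.1 kb. It was followed by chains at chr13:72473579-72507393 (6 peaks, 33.8 kb), chr10:94545729-94579092 (7 peaks, 33.4 kb), chr6:126800311-126833632 (4 peaks, 33.3 kb) and chr1:169656099-169688870 (6 peaks, 32.8 kb). The naming of these chains followed a look at their values.

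The 462 alone had a median width of 6044 bp and a median score of 390, and the 476 with a neighbour within 3 kb had medians of 6160 bp and 428. Among the 963 peaks over a proliferating peak, 352 (36.6%, 33.6 to 39.6%) stood alone, against 49.25% (46.1 to 52.45%) of members. Because these peaks score higher, the shares were also taken within the middle 50% of the members' scores, where 46.4% of 468 members (41.9 to 50.9%) and 39.85% of 266 peaks over a proliferating peak (34.15 to 45.8%) stood alone. The intervals then overlapped.

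The distance to the mark of proliferating cells varied widely among members. The median gap to the nearest proliferating H3K27me3 peak was 34.4 kb (95% interval 30.0 to 38.7 kb), with the middle 50% between 13.7 and 108 kb. With the stronger 50% of each H3K27me3 list it was 57.2 kb. A proliferating peak lay within 10 kb of 154 members (16.4%) and within 100 kb of 691 (73.7%), and 20 of the 938 had none within 500 kb. The most distant were chr12:108164133-108171823 (1401 kb), chr10:96183452-96190108 (1305 kb), chr10:96173185-96178353 (1294 kb), chr8:120629003-120636819 (1274 kb) and chr18:43922383-43927496 (862 kb). The pair on chromosome 10 belonged to the same chain of 3 peaks, which spanned 16.9 kb. The chromosome 12 member, 7.69 kb wide with a score of 521, was also 546 kb from H3K4me3 and 438.5 kb from any other 30 h peak, and was thus far from the peaks of all 3 lists.

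The proliferating peaks nearest to members were ordinary in size, with a median width of 2198 bp and a median score of 91.1 against 2074 bp and 88.25 for that whole list. Of the 938 nearest peaks, counted once for each member, 730 (77.8%, 75.1 to 80.4%) overlapped a 30 h peak, against 62.6% (61.6 to 63.6%) of all proliferating peaks on these chromosomes. Neighbouring members can share a nearest peak, so the 938 are not all distinct and the interval for members is too narrow. The share was not taken for proliferating peaks nearest to other 30 h peaks. Regions marked at both times were closer to members than to the narrower peaks that met the same criteria. The median gap to a 30 h peak over a proliferating peak was 39.5 kb for members, 66.2 kb for the 7033 such peaks under 5 kb and 19.01 kb for the 101 over 10 kb. The part of peak width in these gaps was not tested. Over the 938 members, score did not follow this gap (Spearman's rho = -0.01, given as a description).

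H3K4me3 peaks of proliferating cells were also common around members, though less so than around peaks over a proliferating H3K27me3 peak. The median gap to the nearest H3K4me3 peak was 31.8 kb (28.1 to 35.8 kb) for members and 22.8 kb (19.6 to 26.3 kb) for the 963 peaks. Within 5 kb lay an H3K4me3 peak in 116 members (12.4%, 10.4 to 14.6%) and in 198 of the 963 (20.6%, 18.1 to 23.2%). Within 10 kb it was 21.4% (18.9 to 24.2%) against 32.9% (30.0 to 35.95%). The difference was also seen within the middle 50% of the members' scores, with 19.2% (15.9 to 23.05%) of 468 members against 33.8% (28.4 to 39.7%) of 266 peaks within 10 kb. Both sets exclude H3K4me3 overlap by construction, and neither share was tested against variation between libraries. The distance criterion also bears on the members' share. Of the 250 peaks with a proliferating peak within 5 kb but not over them, 28.4% had H3K4me3 over them or within 5 kb, and 38.8% within 10 kb. The part of that criterion in the difference was not tested.

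Of the 116 members with H3K4me3 within 5 kb, 103 (88.8%, 81.8 to 93.3%) had as nearest H3K4me3 peak one that overlapped no H3K27me3 peak of either list. The rule bears on this count through the proliferating list, which it keeps away from members, but sets no limit on other 30 h peaks. Only 14.6% of all H3K4me3 peaks on these chromosomes overlapped a 30 h peak, so most lay clear of that list anyway. The share clear of both lists was 63.4% (60.3 to 66.45%) over all 938 members, some of which can share a nearest peak. It was not taken for all H3K4me3 peaks. The member at chr5:69984898-69993619 was 8.72 kb wide with a score of 803 and lay 0.798 kb from an H3K4me3 peak, with no other 30 h peak for 1578 kb, the longest such gap among members. It was picked out with its values in view. Over all members the nearest H3K4me3 peak had a median width of 1846 bp (1970 bp in the whole list). Of these nearest peaks, 335 (35.7%) overlapped a 30 h peak, against 14.6% of all H3K4me3 peaks on these chromosomes. The latter share is not limited to the surroundings of 30 h peaks. It was not taken for the H3K4me3 peaks nearest to other 30 h peaks, so the difference is not a trait of the members. For 177 members (18.9%) no H3K4me3 peak lay within 100 kb, and the members farthest from one were at chr7:47533694-47539253 (614 kb), chr8:105975687-105981072 (586 kb), chr5:41511113-41516628 (581 kb), chromosome 12 at the place named above (546 kb) and chr11:55786588-55792211 (480 kb).

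**Figure D4:**
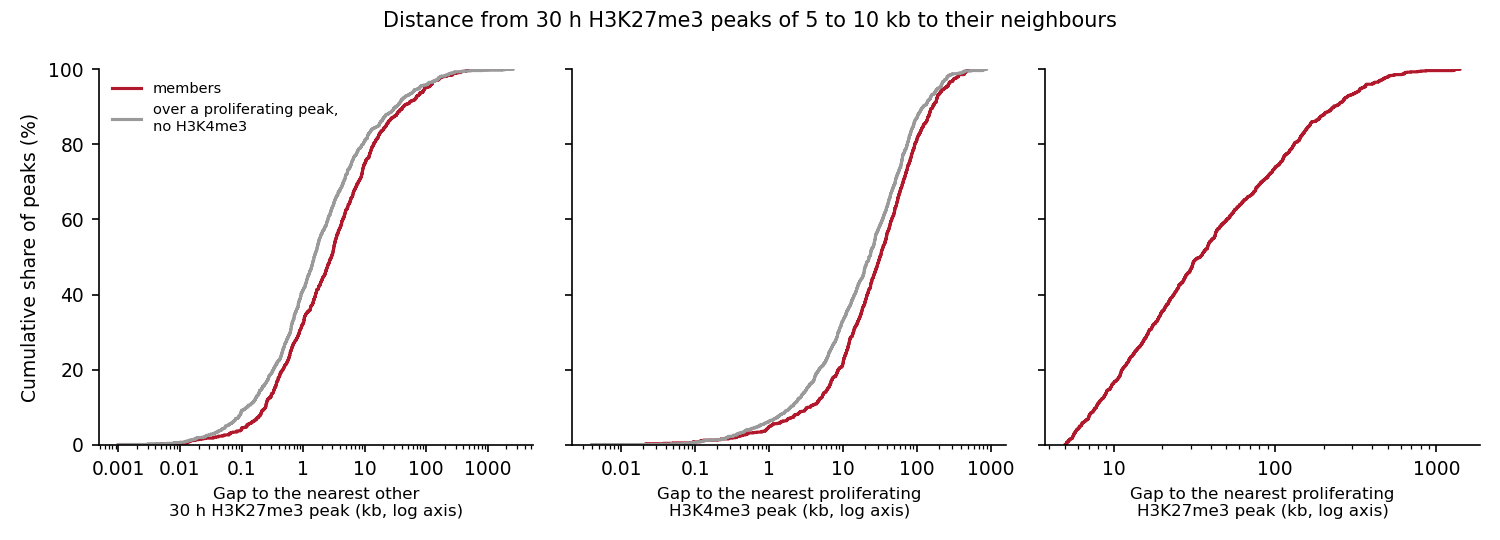
Cumulative share of peaks (y axis, percent) with a gap up to the value on the x axis (kb, log scale) to the nearest other 30 h H3K27me3 peak (left), proliferating H3K4me3 peak (middle) and proliferating H3K27me3 peak (right), for the 938 members (red) and the 963 peaks of 5 to 10 kb over a proliferating peak and no H3K4me3 (grey, left and middle only). Median gaps of members are 2.87, 31.8 and 34.4 kb, and the red curves lie to the right of the grey ones over most of their length.

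Within 100 kb on both sides, a member had a median of 6 other 30 h peaks that covered 27.1 kb, 2 proliferating H3K27me3 peaks that covered 4.45 kb and 2 H3K4me3 peaks that covered 3.33 kb. The 963 peaks over a proliferating peak had medians of 7, 4 and 3 peaks that covered 32.7, 12.1 and 5.32 kb. For 247 members (26.3%) the window held no proliferating H3K27me3 peak at all. The surroundings of members were thus nearly as rich in 30 h peaks as those of peaks over the proliferating mark, and poorer in the proliferating mark, which the rule in part imposes.

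Members were found on all 19 numbered chromosomes. Their density ran from 0.198 per Mb on chromosome 18 and 0.213 on chromosome 3 to 0.750 on chromosome 19 and 0.755 on chromosome 11, with 0.379 over all, taking the end of the last peak in any list as the length of the chromosome. The order of the chromosomes followed that of 30 h peaks in general (Spearman's rho = 0.93 over 19 chromosomes), as a description with no test. It also followed that of proliferating H3K27me3 peaks (rho = 0.85) and of H3K4me3 peaks (rho = 0.83). As a share of the 5 to 10 kb peaks of a chromosome, members made up 25.7% on chromosome 17 and 25.8% on chromosome 5 at the lower end and 46% on chromosome 19 at the upper end. The intervals of chromosomes 17 (19.2 to 33.5%) and 19 (36.6 to 55.7%) did not overlap, while most chromosomes lay between 29.1 and 39.25% with overlapping intervals.

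Along the chromosomes, 387 members (41.3%, 38.15 to 44.4%) had another member within 100 kb. The corresponding share was 47.7% (44.5 to 50.8%) among the 963 peaks over a proliferating peak, higher than in members. With gaps under 100 kb joined, there were 709 groups, of which 551 were single members, 116 pairs, 22 groups of 3, 13 of 4, 5 of 5 and 2 of 6. Of the 158 groups of 2 or more, 100 (63.3%, 55.5 to 70.4%) held no proliferating H3K27me3 peak between their first and last member, and 91 held no H3K4me3 peak either. Of the 42 groups of 3 or more, 17 (40.5%, 27.04 to 55.5%) held no proliferating peak, and 13 (30.95%) held neither. The rule in part imposes these counts, since it keeps proliferating H3K27me3 5 kb from each member and short gaps cannot hold such a peak. The same shares were not taken for groups of other 30 h peaks, so they are not a trait of the members.

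Both groups of 6 were free of the other lists from end to end, whereas all 5 groups of 5 held a peak of another list. For proliferating H3K27me3 the rule in part imposes this, as it keeps such peaks 5 kb from each member. The first group of 6 lay at chr9:69673525-69831266 and held 14 peaks of the 30 h list that covered 63.8 of 158 kb. No proliferating H3K27me3 and no H3K4me3 peak lay between its ends. From start to end, its members were 6.27, 5.86, 6.47, 9.77, 7.54 and 7.71 kb wide and scored 1070, 315, 712, 966, 623 and 392. The highest score stood beside the lowest, and scores followed no single direction along the group. Its first member was 45.7 kb from a proliferating peak and its last 5.27 kb from an H3K4me3 peak.

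The second lay at chr14:67938649-68031519, where 11 peaks of the 30 h list covered 51.8 of 92.9 kb. Gaps between its members were 13.7, 9.31, 8.43, 7.14 and 13.4 kb, so the rule left little room for a proliferating H3K27me3 peak. Its members were 6.52, 9.38, 6.45, 5.43, 7.62 and 5.53 kb wide. Their scores fell in order from 862 through 813, 541, 480 and 376 to 303, while the gap to the nearest proliferating peak rose from 15.9 to 103 kb. The first member was the end of a chain at chr14:67822679-67945169, in which 5 peaks covered 118 kb and which met both other lists. The group thus began at the edge of a domain that overlapped the mark of proliferating cells.

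Among the groups of 5, that with the longest span lay at chr11:96296912-96533475. Its 237 kb held 26 peaks of the 30 h list that covered 164 kb and 14 proliferating H3K27me3 peaks that covered 39.6 kb, and no H3K4me3 peak. Its members, with scores from 285 to 858, stood among proliferating peaks, and lay 9.47 to 25.4 kb from a proliferating peak. The other 4 groups of 5 held fewer peaks of the other lists. Those at chr9:60223642-60359161, chr4:113970555-114095267 and chr1:92188312-92301201 each held 2 proliferating H3K27me3 peaks, the second of them also 1 H3K4me3 peak, and that at chr11:99156222-99312763 held 1 H3K4me3 peak alone.

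**Figure D5:**
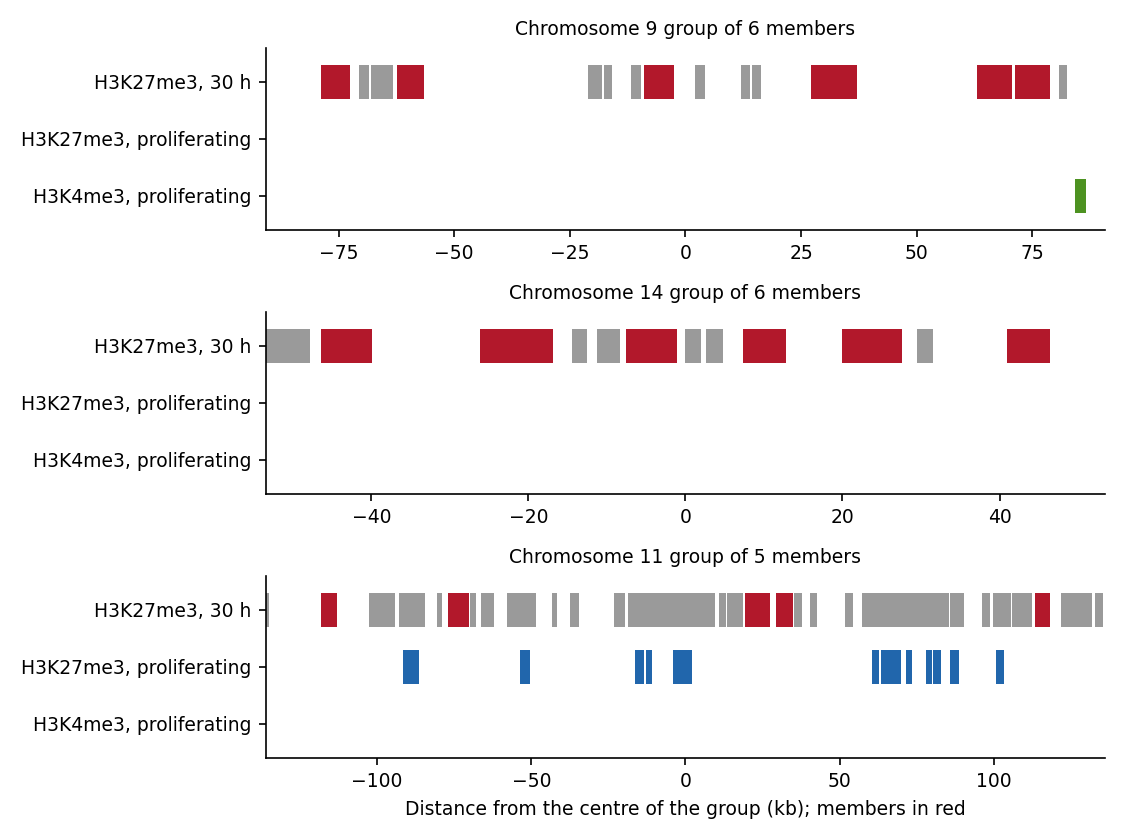
Peaks of the 3 lists (rows) around both groups of 6 members and the longest of 5 groups of 5, drawn to scale against distance from the centre of each group (x axis, kb), with members in red. No proliferating peak of either mark falls between the ends of the groups on chromosomes 9 and 14, whereas the group on chromosome 11 holds 14 proliferating H3K27me3 peaks. For H3K27me3 the rule in part imposes that absence, as it keeps proliferating peaks 5 kb from each member.

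With the H3K27me3 lists exchanged, the same rule found 3 of 617 proliferating peaks of 5 to 10 kb (0.486%, 95% interval 0.166 to 1.42%), against 938 of 2753 at 30 h. They lay at chr2:94293237-94300586 (score 326), chr1:34941771-34947633 (score 293) and chr19:34557966-34563828 (score 265), all below the median score of 723 for proliferating peaks of that width. Proliferating peaks were narrower throughout, so 5 to 10 kb selects a different part of that list. The limits of 5 and 10 kb lie at percentiles 73.8 and 92.2 of the 30 h widths, and the same percentiles of the proliferating widths are 2902 and 5894 bp. Between these, 114 of 1689 proliferating peaks (6.75%, 5.65 to 8.05%) met the other criteria. Both counts depend on lists of different length and unknown depth, so a gain of the mark during differentiation and a more complete 30 h list cannot be told apart. All 938 members were still present when the 30 h list was cut by score to 9470 peaks, the size of the proliferating list. That cut could not remove a member, since its lowest score was 111.22 and the lowest among members was 126.16. At 2196 peaks, which cover the same length as the proliferating list, the lowest score was 723.93 and 93 members were left. The exchanged rule then found 29 of the 617 proliferating peaks. With peaks less than 3 kb apart merged in both lists, the counts were 1069 and 38. The number of 5 to 10 kb peaks in the cut 30 h list and in the merged lists was not taken. The 93, 1069 and 38 therefore have no share to set beside those above.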

How the data were processed

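The authors deposited 1 peak list per ChIP-seq library, with the position and MACS score of each peak. The methods state that MACS ran with neither a model nor lambda for H3K27me3, and the submitters' processing notes name Bowtie2 and mm9. For the MACS version, threshold and H3K4me3 settings nothing is given in the sources used here; inputs were not analysed here. The deposited score was compared only between peaks of a list. No other value was used.

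Members were found with Python 3.11.15, numpy 2.4.6 and pandas 2.3.3, and medians' intervals with scipy 1.17.1. bedtools 2.31.1 gave the same number of members, 938. The interval code was tested on simulated data and found 200 of 200 planted members. Overlap means at least 1 bp, and gaps run from edge to edge. Figures used matplotlib 3.10.9. Members, comparison sets and settings were chosen with earlier results of these data known. Peaks were named by rule: the 10 highest scores, the 5 widest, the 5 farthest from either proliferating mark, the 3 largest groups (ties by span) and the nearest to each limit, of which some are given; others are marked as chosen after their values were seen. Results on genes and base composition were planned but not run, since the gene positions provided are not in mm9. With 1 library per condition, no test was made.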

Additional observations from a re-analysis of the deposited data

How the results depend on the processing

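Of 8 planned changes to the rule or the lists, none moved the number of members by over 1.5 times (784 to 1290). The cut to equal numbers could not lower it, as its lowest score, 111.22, lay below that of every member (126.16 or more). Cutting the 30 h list by score until both H3K27me3 lists cover equal length, a setting chosen after seeing the data, left 93. The lowest score kept was then 723.93, above the upper quartile of the members' scores, 538. Counts from cut or merged lists have no share beside them, as the number of 5 to 10 kb peaks in those lists was not taken. The median width moved to 6236 bp with the stronger 50% of each H3K27me3 list, 6757 bp with peaks under 3 kb apart merged and 6270 bp with no upper width limit, and the median score to 432.7, 249.8 and 432.6. The share of members with another within 100 kb was 44.6% with 2 kb free of proliferating peaks, 37.5% with 10 kb, 50.5% with the stronger 50%, 35.45% after merging and 45.2% with no upper limit; within 50 and 500 kb it was 30.4% and 68.2%. The median gap to a proliferating H3K27me3 peak was 26.7 kb with 2 kb free, 46.1 kb with 10 kb, 57.2 kb with the stronger 50% and 44.9 kb after merging. That to H3K4me3 was 39.5 kb with 5 kb free of it. The rule with the lists exchanged gave 1 peak with 10 kb free, 5 with the stronger 50%, 5 at equal numbers, 6 with H3K4me3 allowed, 38 after merging and, in settings chosen after seeing the data, 114 at equal width percentiles and 29 at equal covered length. With 10 kb in place of 3 kb as the limit for a neighbour, also chosen later, 25.3% of members stood alone. Beyond what each setting does by construction, their cause was not tested. Depth is unknown and limits each comparison between lists. Planned results on genes were not run, since no mm9 annotation was used here.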

Other observations

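Chromosome X was outside the rule. It held 7 peaks of 5 to 10 kb at 30 h, of which 4 met the other criteria, with scores from 94.29 to 423.71. The highest-scoring of them lay on chromosome X from 99194684 to 99199988.

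The fall in score along the chromosome 14 group, away from a domain marked in proliferating cells, was noticed after its values were seen, and is a description of 6 peaks in 1 library. Over all members, score and the gap to a 30 h peak over a proliferating peak had a Spearman's rho of -0.01.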
